A study of Mus musculus with 3 samples.

Results

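The muscle actin and tropomyosin genes comprised 8 genes, namely the actins Actc1, Acta1, Acta2 and Actg2 and the tropomyosins Tpm1, Tpm2, Tpm3 and Tpm4. They were chosen by name, with earlier results of these data known. NKX2-5 peaks were assigned to a gene when the peak midpoint lay within 50 kb of its body in the GENCODE M1 annotation of mm9. This gave 18 of 4418 peaks in the library named S1 and 12 of 5441 in the library named S4. Both libraries came from chromatin immunoprecipitation followed by sequencing (ChIP-seq) on wild-type hearts of Parkes mouse embryos at E11.5, with the antibody N-19 (sc-8697) against NKX2-5, a homeodomain transcription factor of the cardiac lineage. An Input library was also made and was not analysed here. There was 1 condition with 2 libraries, so there was no contrast between groups to test. Captions in the paper describe S1 and S4 as the 2 experiments performed. The sources used here do not say whether S1 and S4 came from separate pools of hearts.

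Actin and tropomyosin form the thin filament of muscle. Actin monomers polymerise into the filament, and tropomyosin dimers lie along it and, with troponin, gate the access of myosin. Apart from Tpm4, each gene was put in a class by its use in adult muscle. A class does not mean that a gene is restricted to that muscle. Actc1 encodes cardiac alpha-actin and Tpm1 encodes alpha-tropomyosin, the main tropomyosin of the heart. Acta1 encodes skeletal alpha-actin, Tpm2 encodes beta-tropomyosin of skeletal and smooth muscle, and Tpm3 encodes the tropomyosin of slow skeletal fibres. Acta2 and Actg2 encode the actins of vascular and enteric smooth muscle, and Tpm4 is widely expressed. The embryonic myocardium also transcribes Acta1 and Acta2, so the classes follow the adult and not the embryo. A whole heart holds muscle, endocardium, epicardium and cushion mesenchyme, and binding in fewer cells cannot be told apart from weaker binding in each cell.

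Peaks were densest around the cardiac genes and lay mostly on the genes themselves. The count of regions called in both libraries depended on how peaks were matched. Wide peaks also lay on the cytoplasmic actin genes Actb and Actg1, which are expressed in nearly every cell. Of the 8 genes, 4 had a region called in both libraries (a shared region, where peaks of S1 and S4 overlapped by at least 1 bp), and Actc1 and Tpm1 had 3 each. Tpm2 had 2 and Acta2 had 1. A peak in 1 library only was found near Actg2 and Tpm4, and Acta1 and Tpm3 had no peak within 50 kb in either library. Among 22380 protein-coding genes, 15.7% had a shared region in the same window and 0.92% had 3 or more. An S1 peak was near 5 of the 8 genes against 26.3% of protein-coding genes, and an S4 peak was near 5 of the 8 against 32%. The mean number of shared regions was 1.125 per gene here against 0.207 over all protein-coding genes, and the median was 0.5 against 0.

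**Figure D1:**
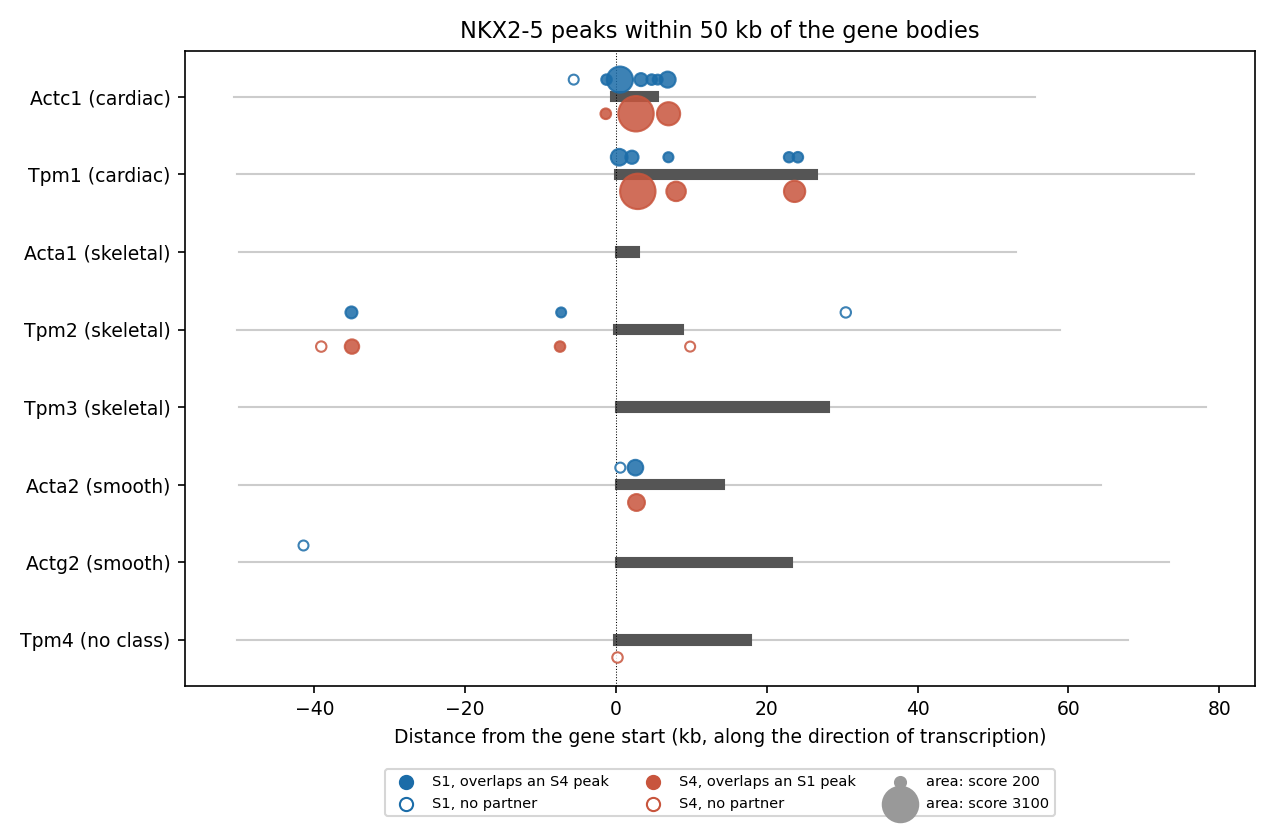
Position of every peak near the 8 genes, in kb from the gene start along the direction of transcription. Grey lines are the windows, dark bars the gene bodies, blue circles S1 peaks and red circles S4 peaks, with the area rising with the score and open circles for peaks without a partner in the other library. The largest circles, with a score of 3100, lie on Actc1 and Tpm1, and the lines of Acta1 and Tpm3 are empty.

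Each peak carries a score from the authors' peak caller, which rises with the strength of evidence against the background of its own library and with depth. The lists hold no read numbers, depth is therefore unknown for both libraries, and scores were not scaled between the lists. Over the whole lists, scores ran from 140 to 3100, with medians of 212 in S1 and 223 in S4. The highest value that occurs, 3100, was held by 9 S1 peaks and 13 S4 peaks. The median widths were 625 bp in S1 and 783 bp in S4. Near the 8 genes, the 18 S1 peaks had a median score of 172 and a median width of 747 bp, and the 12 S4 peaks had a median score of 518 and a median width of 1147 bp. Scores under 200 were held by 11 of the S1 peaks and 5 of the S4 peaks. S1 thus had more and mostly weaker peaks here, and S4 fewer and wider ones, whereas over the whole lists S4 had 1.23 times as many peaks as S1. The mean was 15 ± 4.24 peaks (SD, n = 2 libraries). The ground covered was 16.8 kb in S1 and 26.4 kb in S4, a ratio of 1.57 against 1.54 for the whole lists.

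Of the S1 peaks near these genes, 14 of 18 (77.8%, exact 95% binomial interval 52.4 to 93.6 by Clopper-Pearson, which covers counting error alone) overlapped an S4 peak, against 58.9% (57.4 to 60.3) of the whole list. In S4, 9 of 12 peaks (75%, 42.8 to 94.5) had an S1 partner, against 47.0% (45.6 to 48.3). The interval of the S1 share includes the value of its whole list, as does that of the S4 share. Neighbouring peaks of a gene share their chromatin and are not independent. The overlaps made 9 shared regions, of which 6 lay in the gene body or within 1 kb of a start of the gene, and 8 had the start of that gene as the nearest protein-coding start.

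Actc1 (ENSMUSG00000068614.7, chr2:113873018-113879284, minus strand) had 7 S1 peaks and 3 S4 peaks. The S1 peak at its start, chr2:113876722-113879466, was 2745 bp wide and scored 1639.69, rank 45 by score and rank 8 by width among all S1 peaks. In S4 the gene was crossed by a single peak, chr2:113872793-113879120, which was 6328 bp wide. Its score of 3100 was the top score, which 13 S4 peaks held. That S4 peak was the fifth widest of its list and ran from 509 bp upstream of the start to the end of the gene. It overlapped 4 separate S1 peaks, which scored 141.15, 175.1, 323.77 and 1639.69 and whose midpoints lay at 5.53, 4.74, 3.31 and 0.517 kb from the start. Only 2 of the 5441 S4 peaks had 4 or more S1 partners.

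Peaks of both libraries also flanked the Actc1 gene. Downstream of its end, a peak scored 546.9 in S1 (chr2:113870733-113872790, 2058 bp) and 1263.37 in S4 (chr2:113870666-113872611, 1946 bp). Upstream, the peaks over the start ended 855 bp from it in S1 and 509 bp from it in S4. The next peaks began 903 bp from the start in S1 and 937 bp in S4, with scores of 171.28 and 176.99, so the gap in S1 was short. The region shared by these peaks was classed as promoter, since its midpoint lay 599.5 bp from the start of the transcript Actc1-002. The weakest of the flanking peaks was found in S1 alone, with a score of 141.85 at -5.61 kb, where the negative sign means upstream. In S4 a single peak thus ran from the Actc1 promoter to beyond its 3′ end, and in S1 the same ground was broken into pieces.

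**Figure D2:**
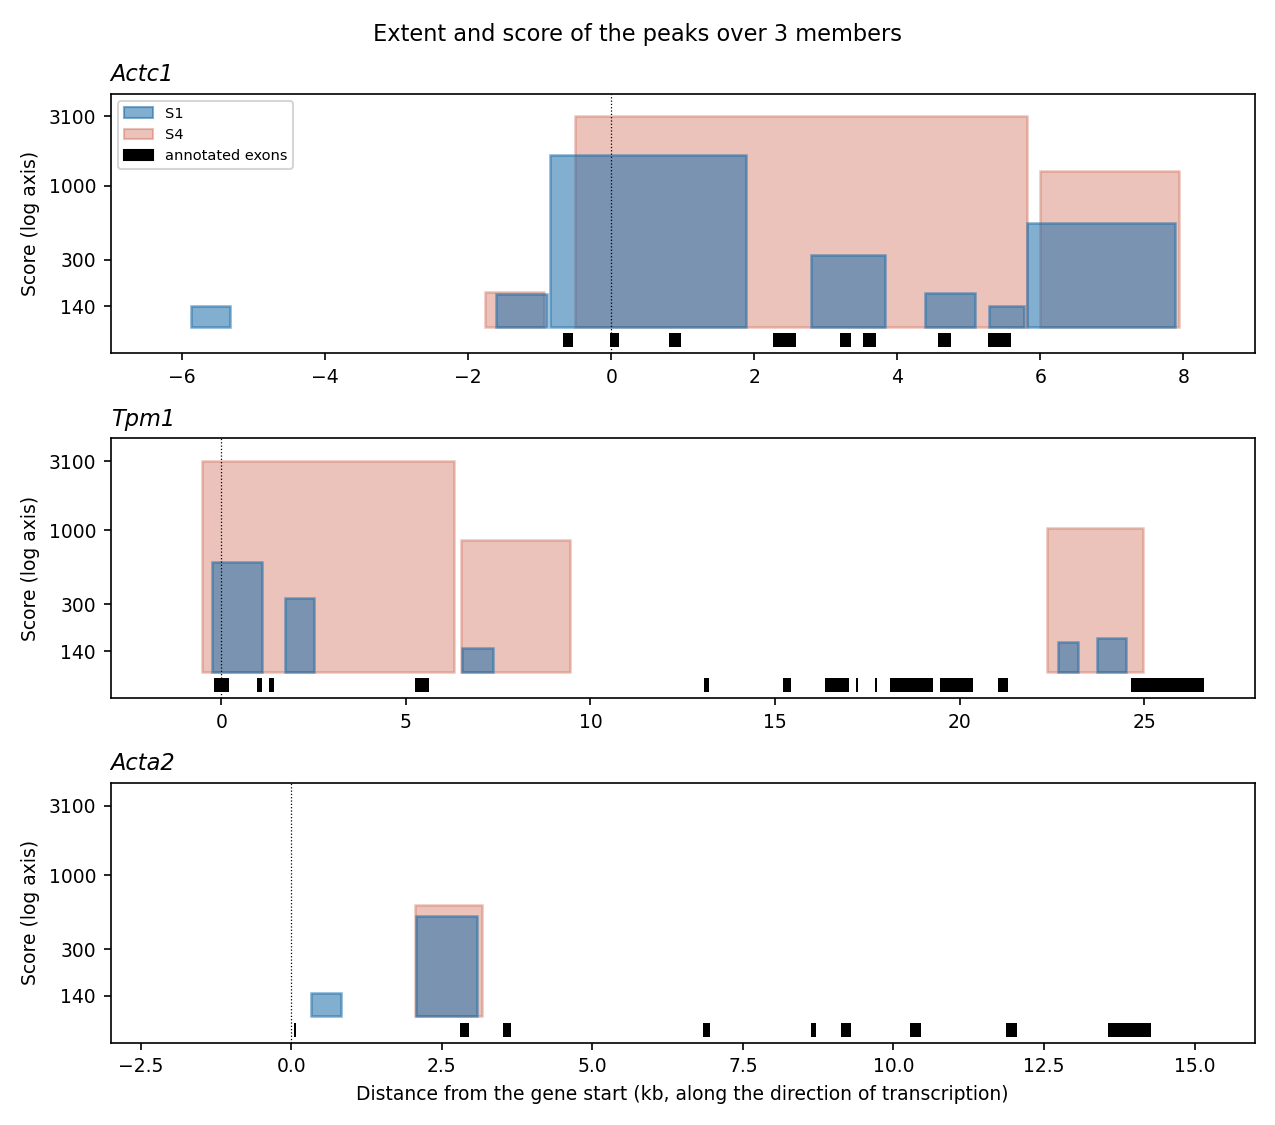
Extent and score of the peaks over Actc1, Tpm1 and Acta2, with the distance from the gene start in kb on the horizontal axis and the score on a log axis. Boxes are peaks of S1 (blue) and S4 (red), and black bars are annotated exons. The S4 boxes of 6328 bp on Actc1 and 6816 bp on Tpm1 each span several S1 boxes, and the boxes of S1 and S4 on Acta2 nearly coincide.

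Tpm1 (ENSMUSG00000032366.9, chr9:66870397-66897213, minus strand) had 5 S1 peaks and 3 S4 peaks, all with their midpoints in the gene body or within 1 kb of its start. At the start, S1 had a peak of 1367 bp with a score of 602.85 and, further into the gene, a peak of 809 bp with a score of 334.47. A single S4 peak, chr9:66890719-66897534, covered both, with a width of 6816 bp and the top score of 3100. It was the second widest of all S4 peaks. Farther inside the gene, the S1 peak at 6.95 kb scored 146.73 and the S4 peak over it scored 861.88. Near the 3′ end, S1 peaks at 22.9 and 24.1 kb scored 161.75 and 173.08, and the S4 peak that joined them scored 1049.18. All 5 S1 peaks of Tpm1 lay inside S4 peaks and scored far below them.

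That difference was large beside the rest of the genome. In each shared region the highest S4 score was divided by the highest S1 score, and over all 2546 shared regions the median of the log2 ratio was 0.16. The 3 regions of Tpm1 had log2 ratios of 2.60, 2.55 and 2.36, and only 1, 2 and 6 of all shared regions had a higher ratio. The Actc1 regions had 1.21 downstream of the gene, 0.92 over the gene and 0.05 upstream of the gene. The ratios over Actc1 and at the start of Tpm1 are limited by the top score of 3100, which both S4 peaks reached. Acta2 had 0.26, and the Tpm2 regions had 0.26 and 0.72. With 1 value per library the ratios have no error, and depth and binding cannot be told apart in them.

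**Figure D3:**
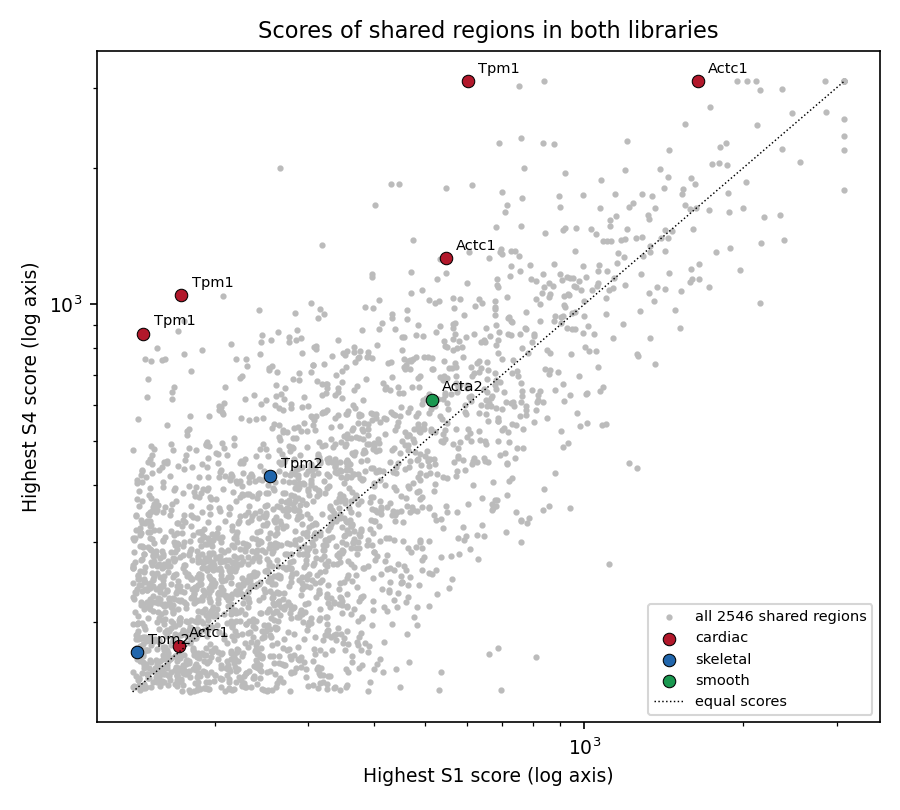
Highest S1 score against highest S4 score of all 2546 shared regions (grey) on log axes, with the 9 regions near the 8 genes coloured by class and named. The dotted line marks equal scores. The 3 Tpm1 regions lie along the upper left edge of the cloud, whereas the Acta2 region, at 514.44 and 616.77, lies close to the line.

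Acta2 (ENSMUSG00000035783.8, chr19:34315580-34329826, minus strand) had a shared region that reached from its first intron across the whole of the next exon into the following intron. The S1 peak was 1016 bp wide with a score of 514.44 and the S4 peak was 1100 bp wide with a score of 616.77. Both were centred near 2.6 kb from the start, at 2.58 kb in S1 and 2.61 kb in S4. S1 had a further, weak peak of 147.58 whose near edge lay 322 bp downstream of the start, and S4 had none there. The start of Acta2 itself was in no peak of either library. Width and score of the Acta2 peaks thus differed less between the libraries than those of Tpm1.

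Tpm2 (ENSMUSG00000028464.9, chr4:43527583-43536637, minus strand) had no peak in its gene body. The nearer shared region lay at -7.30 kb and was weak, with 142.79 in S1 and 171.46 in S4. The stronger shared region lay at -35.1 kb, with 254.86 in S1 and 418.49 in S4, inside Tln1, which encodes the focal adhesion protein talin, and the nearest protein-coding start was that of Creb3, a membrane-bound transcription factor. S1 had a further peak of 164.6 whose nearest start was that of Ccdc107. S4 had a peak of 145.25 with the start of Car9, a carbonic anhydrase, as the nearest, and a peak of 166.24 at the starts of Tln1 and Creb3. There were 7 other protein-coding genes in the Tpm2 window, and with no peak in the gene these regions could not be assigned to Tpm2.

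The remaining genes had little or nothing. Tpm4 (ENSMUSG00000031799.9, chr8:74658874-74677041, plus strand) had a single S4 peak of 168.71 and 597 bp that covered the start, and no S1 peak. Actg2 (ENSMUSG00000059430.8, chr6:83462899-83486259, minus strand) had an S1 peak of 142.57 at -41.5 kb, nearest to the start of Stambp, which encodes a deubiquitinase, and no S4 peak. Acta1 (ENSMUSG00000031972.3, chr8:126415669-126418651, minus strand) and Tpm3 (ENSMUSG00000027940.11, chr3:89876571-89904824, plus strand) had none. Since every deposited peak scored at least 140, weaker enrichment at Acta1 and Tpm3 would not be listed. Just outside the windows, 50 to 100 kb from the gene bodies, the shared regions were at 66.5 and 69.9 kb from Actc1, 63.3 kb from Actg2 and 86.5 kb from Tpm4, and each had another gene's start as the nearest.

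The classes were compared per length of window, because gene bodies differ in length. The cardiac genes Actc1 and Tpm1 had 6 shared regions in 233 kb, or 2.57 per 100 kb. The skeletal genes Acta1, Tpm2 and Tpm3 had 2 in 340 kb, or 0.588 per 100 kb. Both lay in the Tpm2 window and could not be assigned to Tpm2. The smooth muscle genes Acta2 and Actg2 had 1 in 238 kb, or 0.421 per 100 kb. For all protein-coding genes together the value was 0.142 per 100 kb. Within the gene or its promoter lay 5 of the 6 cardiac regions, 0 of the 2 skeletal regions and the 1 smooth muscle region.

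The single libraries gave the cardiac genes the highest density as well. Cardiac genes had 12 peaks in S1 and 6 in S4, or 5.15 and 2.57 per 100 kb. Skeletal genes had 3 and 4, or 0.882 and 1.18 per 100 kb, and smooth muscle genes had 3 and 1, or 1.26 and 0.421 per 100 kb. Over all protein-coding genes the values were 0.268 and 0.342 per 100 kb. With 2 or 3 genes in a class, these are descriptions of the named genes.

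How the peaks were matched decided the count at Tpm1. When the overlap had to span at least 50% of both peaks, Tpm1 kept 0 of its 3 shared regions and Actc1 kept 2, so that the cardiac genes had 2, as many as the skeletal genes. The narrow S1 peaks inside the wide S4 peaks of Tpm1 do not meet that criterion. When only peaks that scored 200 or more were kept, 2 regions were left at Actc1, 1 at Tpm1, 1 at Tpm2 and 1 at Acta2.

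**Figure D4:**
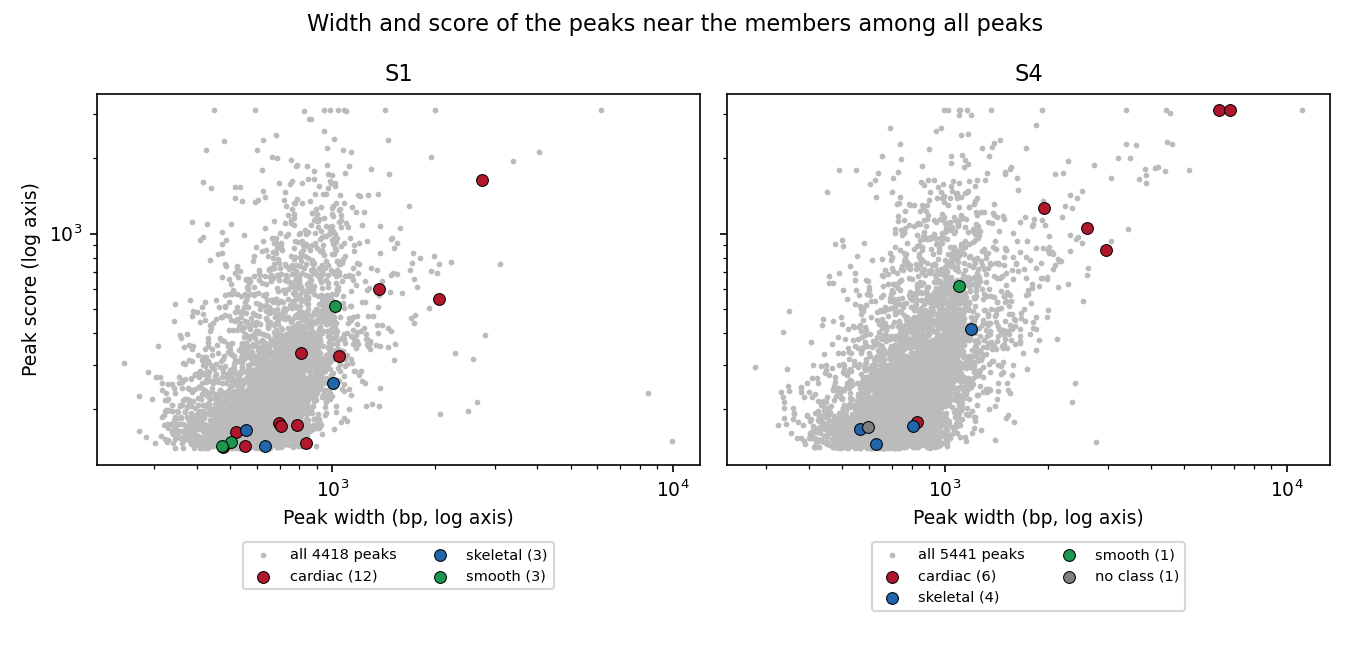
Width in bp against score of all peaks (grey) and of the peaks near the 8 genes, coloured by class, in S1 and S4 on log axes. The widest cardiac peaks, 2745 bp in S1 and 6816 bp in S4, lie at the wide edge of each cloud. The narrower cardiac peaks, down to 477 bp in S1, and the skeletal and smooth muscle peaks lie within it.

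The widest peaks near the 8 genes lay on Actc1 and Tpm1. Peaks of 5 kb or more made up 0.0679% of S1 (3 peaks) and 0.110% of S4 (6 peaks), and 2 of those 6 lay on Tpm1 and Actc1. Of the other S4 peaks over 5 kb, 3 lay on the sarcomeric genes Myh6 with Myh7 (11100 bp), Myl2 (6770 bp) and Myh7 (5186 bp), and the remaining peak overlapped no annotated protein-coding gene. No S1 peak near the 8 genes reached 5 kb. At the other 6 genes the widest peak was 1194 bp, near Tpm2 in S4.

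In consequence a large part of Actc1 lay in peaks of both libraries, and a smaller part of Tpm1. Of the Actc1 gene body, 73.5% was covered in S1 and 97.4% in S4, and 4 of the 22380 protein-coding genes had a higher share in both libraries. Of Tpm1, 15.9% was covered in S1 and 44.9% in S4, with 32 genes higher in both. Acta2 had 10.7% and 7.72%, Tpm4 had 0% and 3.29%, and the other 4 genes had 0% in both. Of all protein-coding genes, 14 (0.0626%) had 50% or more of the gene body in peaks of both libraries, and Actc1 was the only member of this family among them. Most of the 14 are short, and of 16526 genes with a body of at least 5 kb only Actc1 and Myl2, the ventricular myosin light chain, were covered that far.

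Exons and introns were covered alike in Actc1 and unlike in Tpm1. In Actc1, 78.4% of exonic bases lay in S1 peaks and 91.0% in S4 peaks, against 71.8% and 99.6% of intronic bases. In Tpm1, 7.93% and 21.0% of exonic bases were covered, against 18.4% and 52.6% of intronic bases. The Tpm1 peaks lay over the first introns and an intron near the 3′ end, and left most of the 3′ exons uncovered. Short sequences within the peaks were nearly always found at a single place in the genome. The share of 32-base words that occur once in the assembly was at least 97.2% in every peak near the 8 genes.

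**Figure D5:**
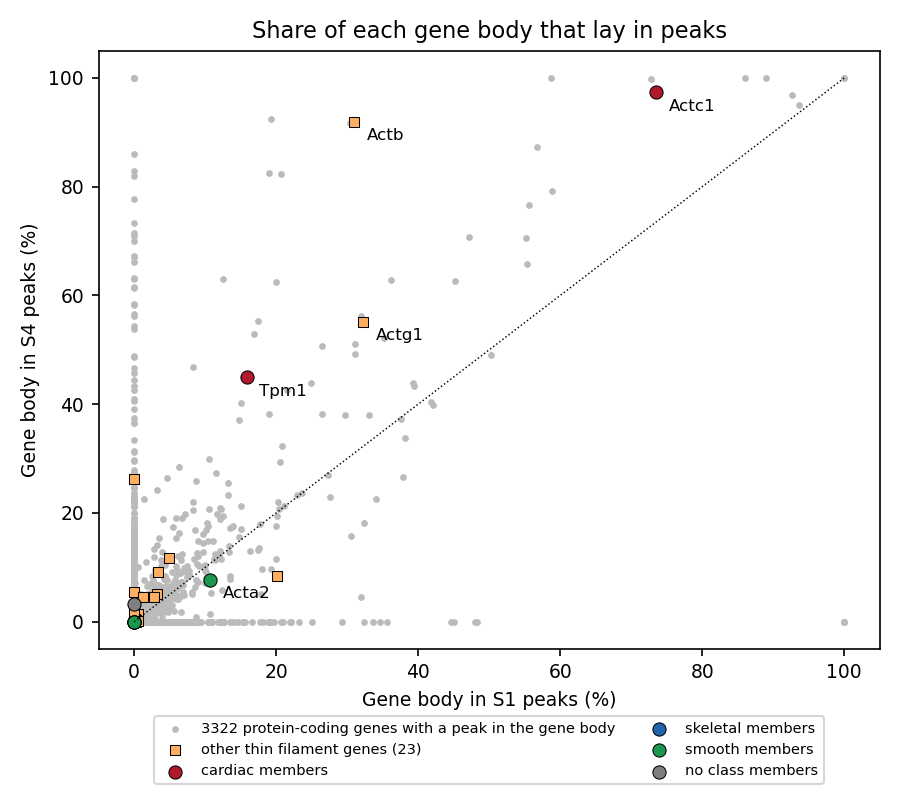
Share of the gene body in S1 peaks (horizontal) and S4 peaks (vertical), in percent, for protein-coding genes with a peak in the gene body (grey), the other thin filament genes (squares) and the 8 genes (circles, by class). The dotted line marks equal shares. Tnnc1 has more than 1 annotated entry, and its square shows the entry at 3.28 and 5.16%. Actc1 at 73.5 and 97.4% is far from the other 7 genes, and Tpm1 and the cytoplasmic actins Actb and Actg1 lie above the line.

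At the gene starts, Actc1 and Tpm1 were covered in both libraries. The RefSeq start of Actc1 lay inside peaks that reached 855 bp upstream in S1 and 509 bp upstream in S4, and the start of Tpm1 inside peaks that reached 259 and 514 bp upstream. All 250 bases before the start of each of these genes were in peaks of both libraries. The start of Tpm4 was covered in S4 only, up to 103 bp upstream. No other start of the 8 genes was in a peak.

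Sequence was then read from mm9 under the shared regions, as a description of which letters they hold. The letters searched on both strands were AAGTG, the core of the NKX2-5 site, TGACA, the core of the MEIS site, GTGNTGACA, in which an NKX2-5-like core and a MEIS core overlap, and GATAA, the core of the GATA site. The CArG box, bound by SRF, and the MEF2 box were searched as well. A GTGNTGACA match also counts as a TGACA match. The sites are printed in the direction of transcription, with the match in capitals, because they lie in the highest-scoring shared region of their gene or hold paired NKX2-5 cores. The GTGNTGACA matches are on the strand opposite to transcription. The first 2 lie in Actc1, in a coding exon close to its edge and in the intron after the first exon (chr2:113875228-113875286 and chr2:113878433-113878491). The next lies in an intron of Tpm1 (chr9:66895225-66895283). Each is printed as the minus strand of mm9, so GTGNTGACA itself reads on the plus strand.
Actc1 GTGNTGACA, exon: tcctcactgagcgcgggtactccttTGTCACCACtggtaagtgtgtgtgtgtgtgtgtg
Actc1 GTGNTGACA, intron: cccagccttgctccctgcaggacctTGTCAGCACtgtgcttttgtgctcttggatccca
Tpm1 GTGNTGACA, intron: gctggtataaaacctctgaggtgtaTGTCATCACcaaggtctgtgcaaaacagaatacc

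CArG boxes are shown for the genes of 3 muscle classes, each on the minus strand of mm9. That of Actc1 (chr2:113878624-113878683) lies just before the gene start inside peaks of both libraries, that of Acta2 (chr19:34327658-34327717) in the intronic shared region, and that of Tpm2 (chr4:43571592-43571651) in the far shared region within Tln1. The Acta1 box (chr8:126418714-126418773) also lies just before the start, in a gene with no peak, and was added after the values were seen.
Actc1 CArG box: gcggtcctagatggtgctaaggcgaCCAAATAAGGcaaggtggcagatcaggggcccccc
Acta2 CArG box: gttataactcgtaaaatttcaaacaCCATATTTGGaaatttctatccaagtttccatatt
Tpm2 CArG box: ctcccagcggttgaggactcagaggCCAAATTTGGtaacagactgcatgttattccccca
Acta1 CArG box, no peak: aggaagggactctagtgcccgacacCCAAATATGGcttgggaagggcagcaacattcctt

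Motif windows reached 100 bp to either side of a midpoint. In a region of several peaks, it was that of the stretch shared by the highest-scoring S1 peak and its highest-scoring S4 partner. The windows that held AAGTG were both at cardiac genes and held 2 matches each. They lay in the region downstream of Actc1 (chr2:113871572-113871772) and in the intronic region of Tpm1 (chr9:66889969-66890169). They are printed in the direction of transcription, on the minus strand, with the matches in capitals (CACTT is the same site on the other strand).
Actc1 downstream: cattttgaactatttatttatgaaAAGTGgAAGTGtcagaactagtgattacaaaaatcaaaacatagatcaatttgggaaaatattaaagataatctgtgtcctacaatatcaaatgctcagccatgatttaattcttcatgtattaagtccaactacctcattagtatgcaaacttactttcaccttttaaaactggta
Tpm1 intron: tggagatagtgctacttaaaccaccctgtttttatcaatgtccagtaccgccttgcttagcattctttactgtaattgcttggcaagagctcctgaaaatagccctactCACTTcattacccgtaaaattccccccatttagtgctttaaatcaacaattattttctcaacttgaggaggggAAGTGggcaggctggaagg

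Few of the 9 shared regions held the NKX2-5 core near the midpoint of the motif window. AAGTG was within 100 bp of the midpoint in 2 of 9 regions (22.2%, interval 2.81 to 60.0) against 64.0% of all 2546 shared regions. TGACA was in 4 of 9 (44.4%, 13.7 to 78.8) against 64.6%, and GTGNTGACA in 0 of 9 (0%, up to 33.6%) against 9.54%. GATAA was in 4 of 9 against 35.2%, the MEF2 box in 1 of 9 against 4.36%, and the CArG box in 0 of 9 against 1.06%. The interval of AAGTG does not include the genome-wide share, and those of TGACA and GTGNTGACA do. These intervals treat the 9 regions as independent, although 3 lay at Actc1 and 3 at Tpm1. They were not adjusted for the number of motifs searched. Within 25 bp of the midpoint AAGTG was in 1 of 9 regions (11.1%, 0.281 to 48.2) against 22.1% of all, and that interval includes the genome-wide share. The deposited lists give no summit, and in stretches of several kb the midpoint can lie far from it.

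Over the whole stretch covered by both libraries, AAGTG was found in 9 of 9 regions against 90.1% of all, and TGACA in 8 of 9 against 87.1%. These stretches were long, and per length the matches were sparser, with 2.06 AAGTG per kb against 3.73 over all shared regions and 2.13 TGACA per kb against 3.93. GTGNTGACA occurred 0.213 times per kb against 0.248. GATAA was as frequent as elsewhere, with 1.92 per kb against 1.77. The stretch over Actc1 alone held 10 AAGTG, 14 TGACA and 2 GTGNTGACA matches.

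CArG boxes were few in number but lay in several of these regions. The box was in 3 of the 9 whole stretches (33.3%, 7.49 to 70.1) against 4.75% of all, or 0.213 per kb against 0.0718 per kb, and the 3 matches were those printed for Actc1, Acta2 and Tpm2. The MEF2 box was in 4 of 9 (44.4%) against 12.0%. Per length it occurred 0.284 times per kb, from 4 matches, against 0.189 per kb over all shared regions. In the 250 bases before RefSeq starts, a CArG box was found in 1.47% of 32851 promoters, and among these genes in those of Actc1 and Acta1. AAGTG was in 40.7% of promoters, TGACA in 39.95%, GTGNTGACA in 1.01%, the MEF2 box in 2.92% and GATAA in 22.6%. Neither the Actc1 nor the Tpm1 promoter held AAGTG, although both lay wholly in peaks of both libraries.

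Other genes of the thin filament, taken from a list chosen for function, were examined in the same windows. The list was made with earlier results of these data known, so its share is not an independent comparison with all genes. Of 23 genes, 14 (60.9%) had a shared region, against 15.7% of protein-coding genes, with a median of 1 and a highest number of 4. The genes are not independent, since several lie in the same window. The troponin genes Tnni1 and Tnnt2 shared 4 regions with highest scores of 621.54 in S1 and 992.3 in S4. Tnni2 and Tnnt3, the fast skeletal troponins, shared 3 regions with 751.23 and 1278.83, and Tnni3 and Tnnt1 shared 1 with 156.51 and 219.81. Tnnc1, which encodes cardiac troponin C, had 1 region with 243.24 and 778.12.

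Among filament-capping and length-setting genes, the tropomodulin genes Tmod1 and Tmod3 had 2 regions and 1 region, the leiomodin gene Lmod2 had 1 region with 468.59 in S1 and 719.57 in S4, and the nebulin gene Neb had 1. The Z-disc gene Actn2 had 3, with highest scores of 483.65 and 350.1. No shared region was near Tnnc2, Tmod2, Tmod4, Lmod1, Lmod3, Nebl, Nrap, Cfl2 or Fhod3. The cytoplasmic actin genes Actb and Actg1 had 2 and 4 regions. None of the 23 had 50% or more of the gene body covered in both libraries, whereas Actc1 did. Tnnc1 has more than 1 entry in the annotation, and the entry used here was covered to 3.28% in S1 and 5.16% in S4. Another Tnnc1 entry was covered to 31.1% in S1 and 49.27% in S4, which is also under 50%.

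The genes with a pattern most like that of Actc1 were sought among 126 genes with 3 shared regions in the window, by the distance in log10 of the highest score in both libraries. The nearest were 2310003H01Rik and Nploc4 (distance 0.0744, scores of 1946.21 in S1 and 3100 in S4), whose window takes in the region over Actg1, and Ltbp3 (0.0924, 2028.42 and 3100). The match used scores from anywhere in the window, so it does not bear on how far a gene body was covered. Of the gene body, Nploc4 had 1.59% in S1 peaks and 3.01% in S4 peaks, and 2310003H01Rik and Ltbp3 had 0% in both. Actg1 itself, with 4 shared regions, was outside the match and was covered to 32.2% in S1 and 55.2% in S4.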

How the data were processed

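Per the labels and the methods of the study, hearts of E11.5 Parkes embryos were fixed and sonicated. The authors used BOWTIE for alignment to mm9 and MACS 1.4 to call peaks, separately for S1 and S4 and not pooled. The settings, and whether the Input served as control, are not given in the sources used here. The submitters' processing notes also name CASAVA 1.4. The deposited score of each peak comes from the peak caller and rises as its p-value falls. The deposited start and end are positions in bp, and starts were counted from 0, so 1 was added. No peak ran beyond a chromosome of the assembly.

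Peaks were assigned by midpoint to gene bodies in GENCODE M1 with 50 kb on each side, and shared regions by the midpoint of the bases common to both lists. Connected overlaps were merged. Gene starts were those of RefSeq promoter sequences (GRCm38.p6), placed on mm9 by an exact match, for 7 of the 8 genes, and the outermost GENCODE start for Actg2. Promoter meant a midpoint at most 1 kb from a transcript start. Where a region held several peaks, motif windows were centred on the stretch shared by the highest-scoring S1 peak and its highest-scoring S4 partner. No test was run. Shares carry exact binomial intervals (Clopper-Pearson, level 0.95), for counting error alone. Depth is unknown, so a score has no error.

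The members and gene lists were chosen with earlier results of these data known. All 8 genes were named with all of their peaks. Other genes were named where their start was nearest to such a peak, where they belonged to the thin filament list and had a shared region, or where their scores and number of regions were most like those of Actc1 (over 1 Mb away). Genes on the widest peaks, and those listed as having no shared region, were named after their values were seen. Sequences were chosen from the highest-scoring shared region of each gene, apart from the paired AAGTG windows and the Acta1 box. Alternatives were windows of 10 and 100 kb, a score of at least 200, any base in place of the midpoint, overlap of at least 50% or midpoints within 150 bp, other classes and other motif windows. Counting and motif search were tested on simulated data, where planted peaks were recovered for 100 of 100 genes and planted GATAA in 500 of 500 sequences. Scripts ran under Python 3.11.15 (scipy 1.17.1, numpy 2.4.6, numba 0.67.0, matplotlib 3.10.9).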

Additional observations from a re-analysis of the deposited data

How the results depend on the processing

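Of 68 alternative values over 13 results, 41 stayed within the limits set for a change and 27 moved. Keeping only peaks that scored 200 or more, the mean fell from 15 to 7 peaks, shared regions from 9 to 5, cardiac regions from 6 to 3, skeletal regions from 2 to 1 and protein-coding genes with a shared region from 3506 to 2186, and the shared fraction of S1 peaks rose from 77.8 to 100% (7 peaks). Where overlaps had to span 50% or more of each peak, there were 5 shared regions and 2 cardiac regions, and the shared fractions were 27.8% in S1 and 41.7% in S4. With midpoints within 150 bp these were 4 shared regions, 2 cardiac regions, 1 skeletal region, 22.2% and 33.3%. A window of 10 kb gave 1 skeletal region and 1761 genes, and 100 kb gave 2 smooth muscle regions and 5424 genes. With actins only there were 3 cardiac and 0 skeletal regions, and with Tpm2 counted as smooth muscle there were 0 skeletal and 3 smooth muscle regions. Over the whole shared stretch, AAGTG was in 100% and TGACA in 88.9% of the 9 regions. Of 14 genes covered to 50% or more in both libraries, 2 had a body of at least 5 kb, and at a limit of 25% there were 37 genes. These last settings were chosen after seeing the data. The number of peaks without replicate S1 was 12 and without replicate S4 it was 18.

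No paired analysis was possible because there is 1 condition and no test. Except where a longer stretch, a stricter limit or a regrouping itself sets the count, the cause of these changes was not tested. Duplicate lists of unknown depth limit what can be said of strength. The peaks have no summits, so motif windows depend on the midpoint, and 9 regions are few for a share. A gene with no peak is a gene below the authors' threshold, which is not the absence of binding.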

Other observations

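The cytoplasmic actin genes, which are expressed in nearly every cell, resembled Actc1 and Tpm1 in the width of their peaks. Actb had a peak of 4565 bp in S4 with a score of 3021.82, and its gene body was covered to 31.0% in S1 and 92.0% in S4. Actg1 had a peak of 3399 bp in S1 with a score of 1946.21, and its gene body was covered to 32.2% in S1 and 55.2% in S4. At both genes the covered share was higher in S4, as it was at Actc1 and Tpm1. Their highest scores were 753.9 in S1 and 3021.82 in S4 near Actb, and 1946.21 and 3100 near Actg1.

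The genes covered to 50% or more in both libraries besides Actc1 included the histone genes Hist1h1e, Hist4h4, Hist1h4f, Hist1h1c and Hist1h4h, the natriuretic peptide gene Nppb, the growth factor gene Ctgf and Myl2. Hist1h1e and Hist4h4 were covered to 100% in both, with bodies of 0.748 and 0.312 kb. Nppb was covered to 58.7% in S1 and 100% in S4, and Myl2, with a body of 12.5 kb, to 55.6% and 76.6%. A peak of ordinary width can cover a short gene, which is not the case for Actc1, whose body is 6.27 kb long.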
